A study of Mus musculus with 11 samples.

Results

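Noncoding RNAs that macrophages use as regulators were followed in mouse RAW cells, a macrophage-type line, in which the protein GIV (Girdin, encoded by Ccdc88a) had been depleted. The 10 RNAs are Malat1 and Neat1, which stay in the nucleus; Gas5, Snhg1 and Snhg12, which host small nucleolar RNAs (snoRNAs) in their introns; Mir155hg, Mir17hg and Mir22hg, which carry microRNAs; and Ptgs2os2 and Ttc39aos1, long noncoding RNAs of the immune response. They are 10 of the 52143 genes in the table, and 9680 of those genes are annotated as long noncoding RNA. They were chosen by name with measured results of these libraries in view, their levels and changes with LPS among them, so those changes are given as a description and carry no p-value. All 10 passed the filter on low values, which asked for 2 or more libraries at a log2(TPM + 1) of 1 or higher. Mir155hg reached that value only in libraries with LPS. Ttc39aos1 reached it in 2 or more libraries only through those without LPS. RefSeq lists Ttc39aos1 also as lincRNA-EPS, Ptgs2os2 as lincRNA-Cox2 and Mir155hg as Bic.

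Total RNA, with ribosomal RNA removed, was sequenced from 4 groups. GIV-depleted cells carried a short hairpin RNA against GIV (shGIV) and were taken after 5 h of lipopolysaccharide (LPS) at 100 ng/ml (3 libraries) or without LPS (3 libraries). Control cells carried a control hairpin (shC) and were taken with LPS (1 library, replicate 2) or without LPS (3 libraries, of which replicate 2 is shown apart). LPS comes from the outer membrane of bacteria and is sensed by Toll-like receptor 4. The labels name the cells only as RAW, and say neither whether a hairpin line is a single clone nor whether replicates were separate cultures. Each p-value therefore measures only the spread between these libraries. A further control sample with LPS, replicate 3, was not analysed here. With no replicate, control cells with LPS were assumed to vary like the other groups.

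Levels are given in TPM, transcript abundances that are scaled by transcript length and add up to 1000000 in each library. TPM keep no read number. The labels state a range of read numbers, but the files hold none, and the counting precision of each value is unknown. Ccdc88a was at 3.08, 2.62 and 3.39 TPM in GIV-depleted cells with LPS against 5.77 TPM in control cells with LPS. The GIV-depleted libraries without LPS had 6.93, 5.31 and 5.58 TPM of it, against 10.0 and 7.69 TPM in control cells without LPS. The groups did not overlap in either condition, but neither difference passed the threshold over all genes (limma adjusted p = 0.0681 with LPS and 0.232 without). Levels of the lines did not overlap for 64.5% of all genes tested with LPS and 28.3% without. Of 9 macrophage markers 8 had a mean above 1 TPM, with Lyz2 the highest, and none of the 29 markers of 7 other cell types did. Of the 8 macrophage markers tested, 3 passed as lower and 0 as higher in GIV-depleted cells without LPS, against 0.729% of all genes as lower. With LPS their median log2 difference was -0.34 against -0.12 over all genes.

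Control replicate 2 without LPS stood apart before any comparison. The single gene Mir6236 made up 57.8% of its TPM, where the 9 others had 3.79% to 8.78%. Annotated ribosomal RNA took 3.54%, where the 9 others had 0.241% to 0.559%, and what made this library differ was not tested. The share of protein-coding genes was 7.81%, where the 9 others had 74.1% to 81.7%. All group means, changes and tests below are without it unless it is named. Malat1 was at 741 TPM in that library and at 194 and 144 TPM in control replicates 1 and 3. The other 9 RNAs were lower there than in the other control libraries, with Gas5 at 16.6 TPM and Neat1 at 62.9 TPM.

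Long noncoding RNAs act as RNA and encode no known protein. Malat1 gathers in nuclear speckles, and Neat1 is the scaffold on which paraspeckle proteins assemble. snoRNA hosts are spliced, their introns give the small RNAs that guide modification of ribosomal RNA, and the spliced exons are often removed by nonsense-mediated decay. Drosha cuts a precursor out of the microRNA host, and Dicer1 cuts that precursor further. The mature microRNA then pairs through its seed with messenger RNAs and represses them. In mouse macrophages lincRNA-Cox2 regulates immune genes after Toll-like receptor signals, and lincRNA-EPS holds inflammatory genes back in resting cells. miR-155 is known as a microRNA that LPS induces, and the microRNA cluster in Mir17hg promotes cell growth.

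The microRNAs inside the 3 hosts lie in exons of every annotated transcript of their host, and their mature sequences are shown because the host RNAs changed in different directions. Capitals mark the seed, bases 2 to 8. Sequences are RefSeq's, on the build GRCm38.p6.
miR-155-5p: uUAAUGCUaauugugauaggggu
miR-22-3p: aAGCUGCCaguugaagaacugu
miR-17-5p: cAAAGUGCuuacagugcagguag
miR-20a-5p: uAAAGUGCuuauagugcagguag
miR-18a-5p: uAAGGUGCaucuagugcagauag
miR-19a-3p: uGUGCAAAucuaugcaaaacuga
miR-19b-3p: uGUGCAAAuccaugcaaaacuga
miR-92a-3p: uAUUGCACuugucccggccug
miR-155-5p comes from Mir155hg (chr16:84714143-84714165, plus strand) and miR-22-3p from Mir22hg (chr11:75463772-75463793, plus strand). The other 6 come from Mir17hg on chromosome 14. Within that cluster miR-17-5p and miR-20a-5p share the seed AAAGUGC, miR-19a-3p and miR-19b-3p share GUGCAAA, and miR-18a-5p and miR-92a-3p each have a seed of their own. The libraries measured the hosts and not the mature microRNAs. All 8 microRNA genes inside the hosts are listed at 0 in the 9 libraries, as are 20 of the 23 snoRNA genes inside Gas5, Snhg1 and Snhg12.

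The start regions of 2 immune RNAs are shown because these RNAs moved furthest in opposite directions among those whose RefSeq and GENCODE starts lie within 102 bases of each other. Each window runs from 250 bases before the RefSeq start to 50 bases after it, on the minus strand of GRCm38.p6, and capitals mark matched motifs.
Ptgs2os2 (chr1:150164899-150165198, minus strand): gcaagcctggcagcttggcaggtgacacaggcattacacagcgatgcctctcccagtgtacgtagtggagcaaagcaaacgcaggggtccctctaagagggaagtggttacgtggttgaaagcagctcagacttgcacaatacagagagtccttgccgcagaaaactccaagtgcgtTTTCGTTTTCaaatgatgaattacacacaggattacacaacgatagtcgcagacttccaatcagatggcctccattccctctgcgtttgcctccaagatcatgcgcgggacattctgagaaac
Ttc39aos1 (chr4:109406208-109406507, minus strand): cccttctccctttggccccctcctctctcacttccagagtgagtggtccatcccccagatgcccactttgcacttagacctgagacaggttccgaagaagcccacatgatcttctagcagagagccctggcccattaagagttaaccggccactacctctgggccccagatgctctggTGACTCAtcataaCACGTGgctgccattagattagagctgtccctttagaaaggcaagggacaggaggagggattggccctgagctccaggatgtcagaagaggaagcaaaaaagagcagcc
In the Ptgs2os2 window, positions -73 to -64 hold TTTCGTTTTC, a match to the core of the interferon-stimulated response element, which 3.44% of 32851 RefSeq windows of this length hold on either strand. In the Ttc39aos1 window, positions -72 to -66 hold the AP-1 motif TGANTCA (7.81% of windows) and positions -59 to -54 the E-box CACGTG (7.15%). The NF-kB consensus, found in 4.51% of windows, was in no window of the 9 RNAs with a RefSeq entry. For Mir155hg and Mir17hg the RefSeq start lies 9856 and 1511 bases from the GENCODE start. Their windows therefore do not cover the GENCODE start, and nothing is read there about an NF-kB motif. A match describes letters in a window, and binding was not measured.

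The 3 snoRNA hosts fell with LPS in GIV-depleted cells, Gas5 not so with TMM scaling, and the 100 bases around their starts are shown from 50 bases before the RefSeq start, on the plus strand of GRCm38.p6. Capitals mark the motifs named after the sequences, except for a pyrimidine run in Snhg12.
Gas5 (chr1:161035116-161035215): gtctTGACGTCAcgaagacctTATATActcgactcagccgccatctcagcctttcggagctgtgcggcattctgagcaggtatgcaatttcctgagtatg
Snhg1 (chr19:8723437-8723536): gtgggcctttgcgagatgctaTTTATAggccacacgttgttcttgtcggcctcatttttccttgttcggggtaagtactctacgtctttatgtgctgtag
Snhg12 (chr4:132308628-132308727): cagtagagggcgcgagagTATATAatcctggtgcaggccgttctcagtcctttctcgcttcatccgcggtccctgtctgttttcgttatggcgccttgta
TATATA stands at positions -29 to -24 in Gas5 and -32 to -27 in Snhg12, a motif in 5.67% of windows. Snhg12 also holds the pyrimidine run CCTTTCTC at -2 to 5. A run near the start of a C and at least 6 C or T is in 11.1% of windows. Snhg1 holds the reverse complement of TATAAA at -29 to -24, and 13.6% of windows hold that motif on either strand. Gas5 also holds the cyclic AMP response element TGACGTCA at -46 to -39 (1.79% of windows). The Gas5 window is at the downstream one of 2 RefSeq starts, 744 bases from the GENCODE start, and was shown because it held motifs. The upstream one, 179 bases from the GENCODE start, held none of the motifs searched.

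Without LPS the order of mean levels was Gas5, Neat1, Malat1, Snhg1, Ttc39aos1, Snhg12, Mir22hg, Mir17hg, Ptgs2os2 and Mir155hg. Gas5 ranged over 436 to 558 TPM in the 5 libraries without LPS and Mir155hg over 0.380 to 0.594 TPM. The ranges of Neat1 and Malat1 overlapped, as did those of Malat1 and Snhg1, and the other neighbours in this order had separate ranges. With LPS the order changed at the lower end. Gas5 remained the highest at 344 to 368 TPM over the 4 libraries, and Ttc39aos1 was the lowest at 0.124 to 1.87 TPM. Neat1 and Malat1 overlapped again, Mir155hg overlapped with Ptgs2os2 and with Snhg12, and Mir22hg at 56.8 to 61.7 TPM lay above these 3. The plot of levels by library shows the separation of LPS from no LPS for all but Malat1. Such separation was common. Within GIV-depleted cells 9 of the 10 did not overlap, against 78.5% of all genes tested. Within control cells 10 did not, against 87.5%.

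**Figure D1:**
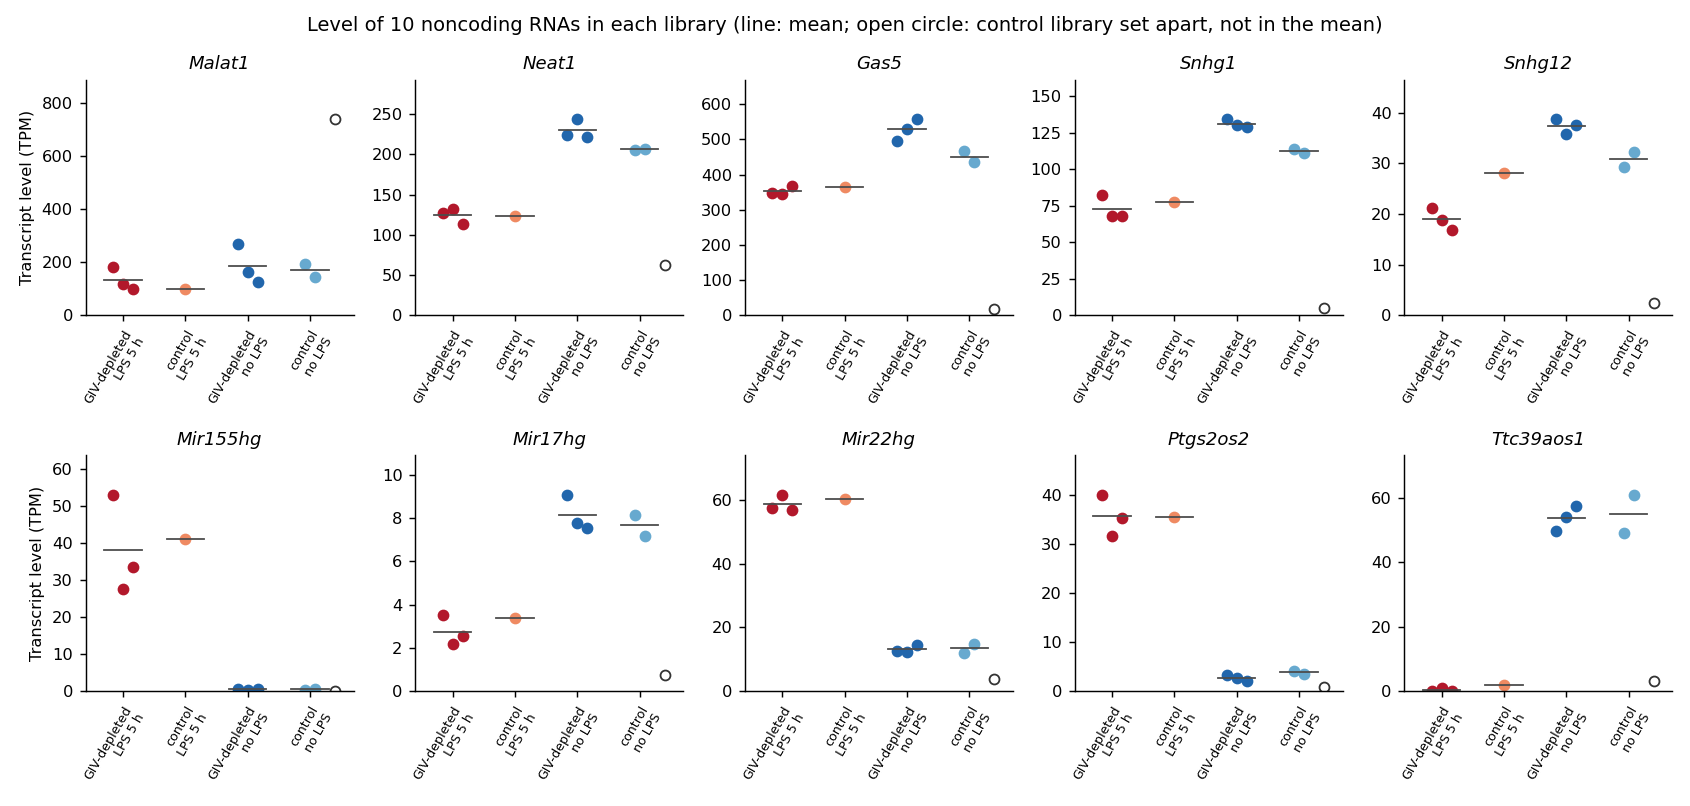
Level of each of the 10 noncoding RNAs in each library, on linear TPM axes that start at 0, with filled points for libraries, a line for the group mean and an open circle for control replicate 2 without LPS. Mir155hg, Mir22hg and Ptgs2os2 are high with LPS in both lines and Ttc39aos1 is near 0 with LPS, while the open circle is far above the others only for Malat1 (741 TPM).

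LPS was set against no LPS within each line to describe these RNAs in the response to it. In GIV-depleted cells 3 of the 10 passed the threshold as higher (Mir155hg, Mir22hg and Ptgs2os2), 6 as lower (Neat1, Gas5, Snhg1, Snhg12, Mir17hg and Ttc39aos1) and Malat1 did not pass. Of all 13711 genes tested 75.5% passed in that comparison, 15.8% as higher and 59.7% as lower. In control cells 3 passed as higher and 5 as lower, against 58.9% of genes in either direction, 14.8% as higher and 44.1% as lower. Snhg12 and Malat1 did not pass there. The LPS comparisons chose the members in part, and nothing is read from these counts.

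The scale of TPM moves all genes together in the LPS comparisons. The median log2 change over all genes tested was -0.54 in GIV-depleted cells and -0.40 in control cells, and 0.0053 and 0.0038 with TMM, a scaling that centres most genes on no change. TMM also changed the split of all genes past the threshold, to 4737 higher and 4467 lower in GIV-depleted cells against 2161 and 8188 in TPM, and to 3902 and 3422 in control cells against 2025 and 6050. Mitochondrial genes took 3.61% to 4.78% of TPM with LPS and 5.23% to 8.32% without it, and their part in the shift was not tested. Changes are also given as distances from the median. In bulk RNA, fewer cells of a kind and less of an RNA per cell cannot be told apart. The value of 1 added before taking logs makes the change of an RNA near 0 look smaller than it is in TPM.

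Among the microRNA hosts, Mir155hg had the largest increase. It was at 53.0, 27.5 and 33.4 TPM in GIV-depleted cells with LPS, against 0.553, 0.381 and 0.515 TPM in GIV-depleted cells without LPS. The control library with LPS was at 40.9 TPM, against 0.380 and 0.594 TPM in control cells without LPS. Every library with LPS was far above every library without it, and GIV-depleted replicate 1 was the highest of the 4. The ratio of mean TPM was 78.6 in GIV-depleted cells and 84.0 in control cells. The log2 change was 4.66 ± 0.22 (SE) in GIV-depleted cells and 4.82 ± 0.33 in control cells, which is 5.21 and 5.22 above the median of all genes.

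Mir22hg, the host of miR-22, was at 57.5, 61.7 and 56.8 TPM in GIV-depleted cells with LPS, against 12.5, 12.4 and 14.3 TPM in GIV-depleted cells without LPS. In control cells it was at 60.2 TPM with LPS, against 11.9 and 14.9 TPM without LPS. Both lines had nearly the same levels in each condition, and LPS separated them without overlap. Mean TPM was 4.49 times higher with LPS in each line. The log2 changes were 2.09 ± 0.10 in GIV-depleted cells and 2.09 ± 0.14 in control cells. Mir22hg shares its strand and part of its span with the coding gene Tlcd2, so reads of a shared stretch were split by the authors' estimate.

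Mir17hg, the host of a growth-promoting microRNA cluster, went the other way. It was at 3.54, 2.19 and 2.53 TPM in GIV-depleted cells with LPS, against 9.09, 7.77 and 7.54 TPM in GIV-depleted cells without LPS. In control cells it was at 3.38 TPM with LPS, against 8.13 and 7.20 TPM without LPS. The libraries with LPS were all low and did not overlap with those without it. Mean TPM was 2.95 times lower with LPS in GIV-depleted cells and 2.27 times lower in control cells. The log2 change was -1.29 ± 0.14 in GIV-depleted cells and -0.98 ± 0.22 in control cells, which lay -0.75 and -0.58 from the median of all genes. In control cells the sign held under the 4 other scalings at -1.09 to -0.42, and the threshold was passed in 3 of the 5.

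Ptgs2os2 (lincRNA-Cox2) was at 40.1, 31.7 and 35.3 TPM in GIV-depleted cells with LPS, against 3.33, 2.60 and 2.09 TPM in GIV-depleted cells without LPS. In control cells it was at 35.5 TPM with LPS, against 4.08 and 3.51 TPM without LPS. The libraries with LPS were all above those without. Mean TPM was 13.4 times higher with LPS in GIV-depleted cells and 9.35 times higher in control cells, and the log2 changes were 3.33 ± 0.14 and 2.93 ± 0.21 in the same lines.

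Ttc39aos1 (lincRNA-EPS) changed in the opposite direction. It was at 0.141, 0.856 and 0.124 TPM in GIV-depleted cells with LPS, against 49.9, 54.1 and 57.5 TPM in GIV-depleted cells without LPS. The control line had 1.87 TPM with LPS, against 49.2 and 61.0 TPM without LPS. Mean TPM was 144 times lower with LPS in GIV-depleted cells and 29.4 times lower in control cells. The log2 changes were -5.36 ± 0.20 in GIV-depleted cells and -4.28 ± 0.30 in control cells. Its level with LPS lay close to 0 in each of the 4 libraries, so the ratio rests on small values and the log2 change on the pseudocount of 1.

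Neat1, the paraspeckle scaffold, was at 127, 132 and 114 TPM in GIV-depleted cells with LPS, against 224, 244 and 222 TPM in GIV-depleted cells without LPS. Control cells showed 123 TPM with LPS, against 206 and 207 TPM without LPS. Its libraries with LPS lay close together and below all libraries without it. The log2 changes of -0.88 ± 0.07 in GIV-depleted cells and -0.74 ± 0.10 in control cells each lay -0.34 from the median of all genes. Their sign held under the 4 other scalings, with -0.90 to -0.22 in GIV-depleted cells and -0.94 to -0.24 in control cells, where 4 of 5 passed.

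Malat1, the speckle RNA, was at 182, 117 and 97.3 TPM in GIV-depleted cells with LPS, against 270, 162 and 127 TPM in GIV-depleted cells without LPS. Control levels were 100 TPM with LPS, against 194 and 144 TPM without LPS. The library of set 1 was the highest in each of the 3 groups with more than 1 library, and the ranges with and without LPS overlapped in GIV-depleted cells. It did not pass the threshold in either line, at -0.47 with a 95% interval of -1.21 to 0.27 in GIV-depleted cells and -0.74 with an interval of -1.84 to 0.37 in control cells. Those intervals include both no change and a larger fall than that of Neat1. With set number added to the fit as a block, the same change of -0.47 passed in GIV-depleted cells.

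The snoRNA hosts moved by less than the immune RNAs. Gas5, known to gather when cells stop growing, was at 347, 344 and 368 TPM in GIV-depleted cells with LPS, against 497, 531 and 558 TPM in GIV-depleted cells without LPS. In the control line 365 TPM was measured with LPS, against 467 and 436 TPM without LPS. Its libraries with LPS did not overlap with those without. The log2 changes of -0.58 ± 0.06 in GIV-depleted cells and -0.30 ± 0.09 in control cells lay only -0.04 and 0.10 from the median of all genes. With TMM scaling they turned to 0.09 and 0.19 and did not pass.

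Snhg1 was at 82.1, 67.7 and 67.8 TPM in GIV-depleted cells with LPS, against 134, 130 and 129 TPM in GIV-depleted cells without LPS. The control line had 77.6 TPM with LPS, against 114 and 111 TPM without LPS. The log2 changes were -0.85 ± 0.08 in GIV-depleted cells and -0.53 ± 0.12 in control cells, -0.31 and -0.13 from the median of all genes. The sign held under the other scalings in both lines, but in control cells it reached -0.03 with 4 of 5 past the threshold.

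Snhg12 was at 21.2, 18.9 and 16.9 TPM in GIV-depleted cells with LPS, against 38.8, 35.8 and 37.6 TPM in GIV-depleted cells without LPS. Control cells showed 28.1 TPM with LPS, against 29.4 and 32.3 TPM without LPS. The GIV-depleted libraries with LPS were the lowest of all, and the control library with LPS lay just under the control libraries without it. The log2 change was -0.95 ± 0.09 in GIV-depleted cells. In control cells it was -0.13 with a 95% interval of -0.43 to 0.18, did not pass, and turned to 0.35 with TMM scaling, past the threshold, and 0.16 with quantile normalization.

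**Figure D2:**
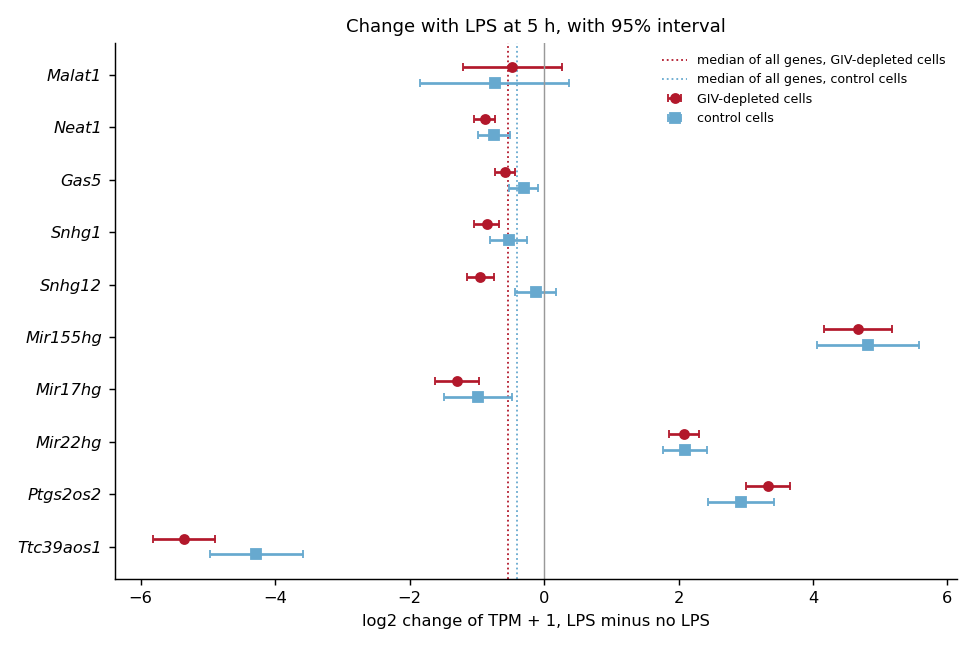
Log2 change of TPM + 1 with LPS for each noncoding RNA in GIV-depleted cells (circles) and control cells (squares), with 95% intervals from limma and dotted lines at the median of all genes tested (-0.54 and -0.40). Mir155hg, Ptgs2os2 and Mir22hg lie to the right in both lines, Ttc39aos1 lies furthest to the left, and Gas5 lies on the median lines.

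GIV-depleted cells were compared with control cells to ask whether GIV sets the level of these RNAs. Without LPS none of the 10 passed the threshold, against 1.22% of all genes tested, 0.489% as higher and 0.729% as lower (limma). At an unadjusted p under 0.05 there were 4 of 10, with Gas5, Snhg1 and Snhg12 higher in GIV-depleted cells and Ptgs2os2 lower, against 12.2% of all genes. The 3 snoRNA hosts had levels that did not overlap between the lines, at 1.17, 1.17 and 1.21 times the control mean for Gas5, Snhg1 and Snhg12. Their log2 differences were 0.23 ± 0.07, 0.22 ± 0.09 and 0.27 ± 0.10, with limma adjusted p = 0.232, 0.368 and 0.321. Ptgs2os2 differed by -0.40 ± 0.16 (limma adjusted p = 0.370), at 2.67 ± 0.62 TPM in GIV-depleted cells and 3.79 ± 0.40 TPM in control cells (SD, n = 3 and 2). Groups did not overlap for 5 of the 10, against 28.3% of all genes.

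The intervals bound how far the other RNAs could differ without LPS. For Mir22hg the 95% interval of the log2 difference was -0.28 to 0.22, and for Neat1 it was -0.02 to 0.33. For Mir155hg, near 0 in both lines, it was -0.57 to 0.56, and for Malat1 it was -0.74 to 0.90. These intervals leave room for differences of these sizes, so the lines are not shown to be alike.

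With LPS 1 of the 10, Snhg12, passed the threshold as lower in GIV-depleted cells and none as higher, against 5.27% of all genes, 4.38% as lower and 0.89% as higher. Snhg12 averaged 19.0 ± 2.1 TPM in GIV-depleted cells with LPS (SD, n = 3) and was at 28.1 TPM in the single control library. All 3 GIV-depleted libraries were below it, and the log2 difference was -0.55 ± 0.12 (limma adjusted p = 0.0490). The median over all genes in this comparison was -0.12. Levels of the lines with LPS did not overlap for 2 of the 10 RNAs, against 64.5% of all genes tested. Settings that lost the call include all 10 libraries, no filter, each of the 4 other scalings, no variance trend and the groups compared alone, at log2 differences of -0.62 to -0.35 over all alternatives. Of the single libraries that could be left out, only GIV-depleted replicate 1 with LPS kept the call when removed. Without the lone control library with LPS this comparison cannot be fitted.

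Ttc39aos1 lay lower too, at 0.374 ± 0.418 TPM in GIV-depleted cells with LPS (SD, n = 3) against 1.87 TPM in the control library. Its log2 difference of -1.10 ± 0.28 did not pass (limma adjusted p = 0.0654), and passed with the stricter filter and without GIV-depleted replicate 2 (limma adjusted p = 0.0422 and 0.0138). With a pseudocount of 0.1 the log2 difference was -2.40 (limma adjusted p = 0.0986). Every comparison of the lines with LPS, here and for the genes named further on, rests on the lone control library. The microRNA hosts were at or near the control library, with log2 differences of -0.16 ± 0.31 for Mir155hg, -0.24 ± 0.20 for Mir17hg and -0.04 ± 0.13 for Mir22hg. Ptgs2os2 was at 35.7 ± 4.2 TPM in GIV-depleted cells against 35.5 TPM in the control library, and its log2 difference had a 95% interval of -0.46 to 0.46.

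**Figure D3:**
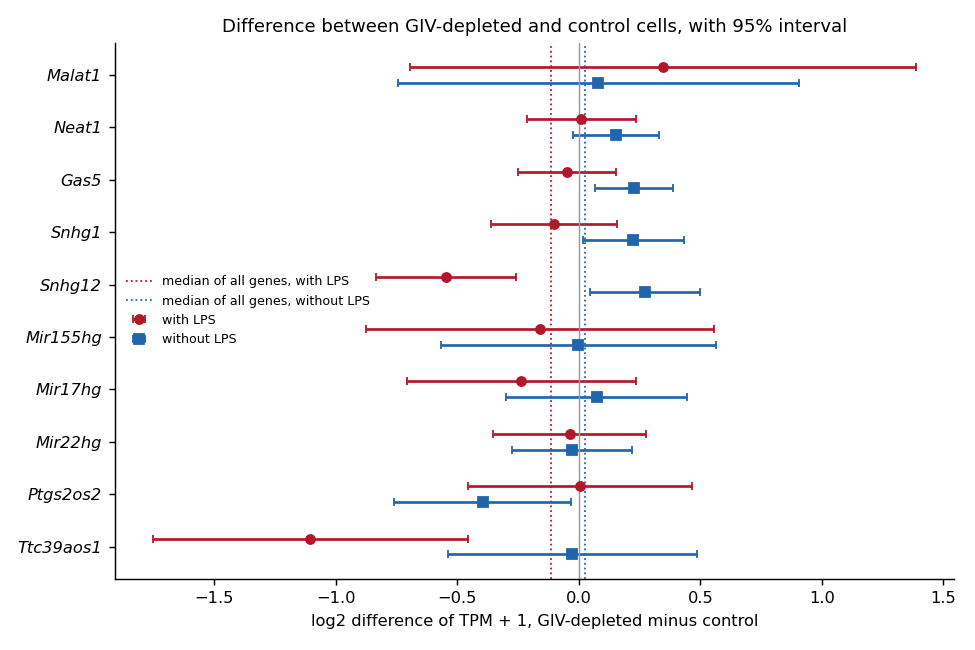
Log2 difference of TPM + 1 between GIV-depleted and control cells for each noncoding RNA, with LPS (circles) and without LPS (squares), with 95% intervals from limma and dotted lines at the median of all genes tested. Snhg12 and Ttc39aos1 lie to the left with LPS, at -0.55 and -1.10, and the intervals of Malat1 are the widest.

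The difference of the LPS responses, the change in GIV-depleted cells minus that in control cells, did not pass the threshold for any of the 10, against 0.226% of all genes, 0.0948% as higher and 0.131% as lower (limma). At an unadjusted p under 0.05 there were 3 of 10, Gas5, Snhg12 and Ttc39aos1 (named after their values were seen), all with a lower value in GIV-depleted cells, against 17.3% of all genes. For Snhg12 the change was -0.95 in GIV-depleted cells and -0.13 in control cells, a difference of -0.82 ± 0.16 (limma adjusted p = 0.0818). For Ttc39aos1 it was -1.08 ± 0.35 (limma adjusted p = 0.194), and -2.38 with a pseudocount of 0.1 (limma adjusted p = 0.246). For Mir22hg it was -0.01 ± 0.17 and for Mir155hg -0.16 ± 0.39. Snhg12 passed with LPS in GIV-depleted cells and not in control cells, and the difference between these changes itself did not pass.

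With control replicate 2 put back in its labelled group, the spread grew and most values that rest on control cells without LPS moved. LPS in control cells then passed for 2 of the 10, Mir155hg at 4.96 ± 0.46 and Ptgs2os2 at 3.42 ± 0.63. Gas5, Snhg1 and Snhg12 turned to 1.26, 0.91 and 0.93 in that comparison, none past the threshold. In GIV-depleted cells, whose libraries do not include it, 4 passed with LPS: Mir155hg, Mir22hg, Ptgs2os2 and Ttc39aos1. GIV depletion without LPS passed for none, with Gas5 at 1.79 ± 1.18 and Malat1 at -0.63 ± 0.80.

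Lists of RNAs of the same kinds and of their partners were counted beside the share of all genes tested that passed with LPS, which was 59.7% as lower and 15.8% as higher in GIV-depleted cells and 44.1% and 14.8% in control cells. Of 20 snoRNA hosts tested, 15 fell and 1 rose with LPS in GIV-depleted cells, Gas5, Snhg1 and Snhg12 among those that fell, with a median of -0.87 against -0.54 over all genes. In control cells 9 fell and 1 rose, with a median of -0.44 against -0.40. Snhg5 fell most, at -1.75 ± 0.09 in GIV-depleted cells and -1.55 ± 0.13 in control cells, followed in GIV-depleted cells by Snhg20 at -1.47 ± 0.11. Zfas1 rose in both lines, by 0.82 ± 0.08 in GIV-depleted cells and 0.99 ± 0.13 in control cells. Over the 4 other scalings and the main one, 10 to 15 fell and 1 to 2 rose in GIV-depleted cells, and 3 to 10 fell and 1 to 2 rose in control cells, where the list's median reached 0.04.

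Of the 8 box C/D and H/ACA proteins tested, which bind snoRNAs and form their particles, 8 passed as lower with LPS in GIV-depleted cells against 59.7% of all genes, with a median of -0.78, and 6 in control cells against 44.1%. With TMM scaling 2 of the 8 passed as lower in GIV-depleted cells. The H/ACA pseudouridine synthase Dkc1 fell, at -1.41 ± 0.09 in GIV-depleted cells and the box C/D core protein Nop56 fell, at -1.13 ± 0.06. The H/ACA protein Gar1 was also lower in GIV-depleted than in control cells with LPS, at -0.67 ± 0.15 (limma adjusted p = 0.0453), and did not pass under the 4 other scalings. Over the scalings 2 to 8 of the 8 fell in GIV-depleted cells, and in control cells 2 to 6 fell and up to 2 rose, with the list's median reaching 0.04. Factors of nonsense-mediated decay, which removes spliced snoRNA host RNAs, were mixed, with 6 of 10 lower and 2 higher in GIV-depleted cells in TPM and a median that was -0.43, and 0.19 with TMM. The endonuclease Smg6 fell, at -1.11 ± 0.12 in GIV-depleted cells and -0.58 ± 0.18 in control cells.

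Of 8 nuclear and chromatin long noncoding RNAs tested out of 12 listed, 7 fell with LPS in GIV-depleted cells, Neat1 among them, against 59.7% of all genes, and 5 in control cells against 44.1%. The medians were -0.78 and -0.62. Ftx, which lies in the X inactivation centre, fell, at -1.10 ± 0.10 in GIV-depleted cells, and Firre, an X-linked RNA of nuclear organization, fell, at -0.83 ± 0.09. Over the scalings 3 to 7 fell and up to 1 rose in GIV-depleted cells. Paraspeckle proteins, the partners of Neat1, had a median of -0.54, that of all genes, with 10 of 12 lower in GIV-depleted cells. Pspc1 fell, at -1.32 ± 0.11 and Rbm14 at -1.21 ± 0.07, whereas the paraspeckle core protein Nono did not pass at 0.10 ± 0.04 (named after its values were seen). Over the scalings 3 to 10 of the 12 fell and up to 6 rose, so the direction of that list depends on the scaling.

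Of 7 noncoding microRNA hosts tested, 3 rose (Mir155hg, Mir22hg and Mir142hg) and 2 fell (Mir17hg and Mir99ahg) in GIV-depleted cells, and over the scalings 3 to 5 rose and 1 to 2 fell. Mir142hg, host of the blood-cell microRNA miR-142 and named after its values were seen, was abundant at a mean of 113 TPM in GIV-depleted cells with LPS against 94.2 TPM in GIV-depleted cells without LPS, a log2 change of 0.25 ± 0.09. Of 20 coding genes that carry microRNAs in their introns, 19 passed as lower and Evl as higher in GIV-depleted cells, against 59.7% and 15.8% of all genes, and 13 to 19 passed as lower over the scalings. In control cells 12 passed as lower, 1 as higher and 7 did not pass, against 44.1% of all genes as lower. Mcm7, a subunit of the replicative helicase that hosts the miR-106b cluster, fell, at -2.94 ± 0.09 in GIV-depleted cells and -2.89 ± 0.14 in control cells. Evl, an actin regulator that hosts miR-342, rose by 2.51 ± 0.08 and 2.68 ± 0.12, and was lower in GIV-depleted than in control cells with LPS at -0.61 ± 0.11 (limma adjusted p = 0.0246), past the threshold in 2 of the 5 scalings.

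Of 12 genes that make and load microRNAs, 10 passed as lower in GIV-depleted cells against 59.7% of all genes, and 2 did not pass. In control cells 8 passed as lower against 44.1% of all genes, 1 as higher and 3 did not pass. Xpo5, which exports precursors from the nucleus, fell, at -1.58 ± 0.06 in GIV-depleted cells and -1.20 ± 0.09 in control cells. Dgcr8, the partner of Drosha, fell, at -1.35 ± 0.11 and -0.91 ± 0.17. The list's median of -0.94 in GIV-depleted cells stayed below 0 under the scalings, at -0.94 to -0.30, with 7 to 10 lower and up to 2 higher.

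Genes reported as targets of miR-155 were mostly higher with LPS, alongside the host of that microRNA. In GIV-depleted cells 6 of 8 rose and 1 fell, against 15.8% and 59.7% of all genes. The list's median was 1.23 against -0.54 for all genes, and its counts were 6 to 7 and 1 over the scalings. The cytokine signalling inhibitor Socs1 rose by 2.83 ± 0.11 in GIV-depleted cells and 2.44 ± 0.16 in control cells, and the chromatin factor Jarid2 by 2.65 ± 0.08 and 2.68 ± 0.13. Inpp5d, the lipid phosphatase SHIP1, fell, at -1.62 ± 0.16 and -1.04 ± 0.23. Of 5 reported targets of the Mir17hg cluster 3 fell and 2 rose in both lines. E2f1, a cell cycle transcription factor, fell, at -2.91 ± 0.07 in GIV-depleted cells, and the cell death gene Bcl2l11 rose by 1.64 ± 0.09.

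Of 7 immune long noncoding RNAs tested, which include Ptgs2os2, Ttc39aos1 and Mir155hg, 4 rose and 3 fell with LPS in both lines and under each scaling. U90926 was at a mean of 12.8 TPM in GIV-depleted cells with LPS, 5.38 TPM in the control library with LPS, 0.0718 TPM in GIV-depleted cells without LPS and 0 in control cells without LPS. It was higher in GIV-depleted than in control cells with LPS, at 1.10 ± 0.21 (limma adjusted p = 0.0294), and passed in 5 of 5 scalings. All 5 hnRNP proteins reported to bind these RNAs fell in GIV-depleted cells, where 59.7% of all genes passed as lower. In control cells their median log2 change was -0.52, against -0.40 over all genes. Hnrnpl, reported to bind lincRNA-EPS in mouse macrophages, fell, at -1.28 ± 0.06 in GIV-depleted cells and -1.23 ± 0.09 in control cells, and over the scalings 1 to 5 of the 5 fell in each line.

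For all genes annotated as long noncoding RNA, 1029 of 9680 passed the filter. Of these 211 rose and 422 fell with LPS in GIV-depleted cells, beside 15.8% and 59.7% of all genes, with a median of -0.36 against -0.61 for protein-coding genes. In control cells 173 rose and 266 fell, beside 14.8% and 44.1% of all genes. GIV depletion without LPS called 4 as higher and 3 as lower among them (1.22% of all genes in either direction), and GIV depletion with LPS 7 and 14 (5.27%).

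**Figure D4:**
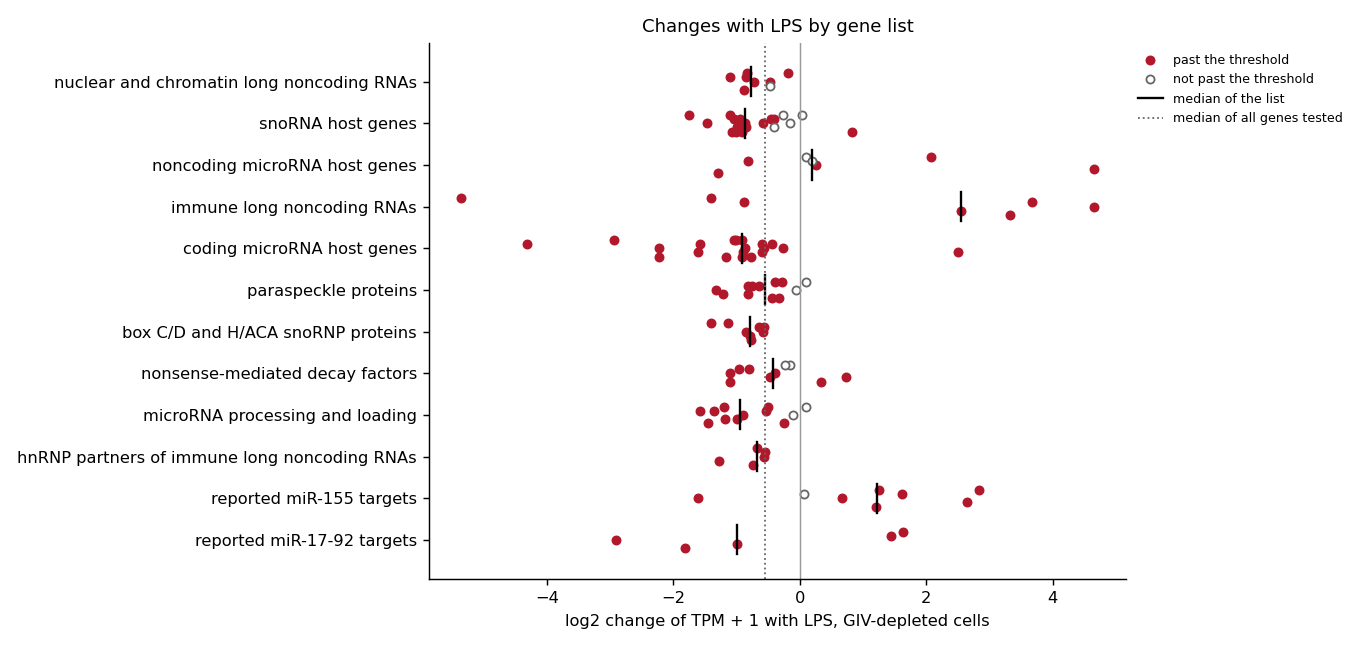
Log2 change of TPM + 1 with LPS in GIV-depleted cells for each tested gene of 12 lists, 1 list per line, with filled points for genes past the threshold, a bar at the list's median and a dotted line at the median of all genes tested (-0.54). The snoRNA hosts and snoRNP proteins lie left of 0 except Zfas1 and hosts near 0, while the miR-155 targets lie mostly right of it.

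Each RNA was set beside its coding neighbours in the GRCm38 annotation. Ttc39aos1 (chr4:109403794-109406155, minus strand) starts 468 bases from Ttc39a, which runs the other way. Ttc39a was at 0.263, 0.243 and 0.413 TPM in GIV-depleted cells with LPS, against 8.26, 9.07 and 8.22 TPM in GIV-depleted cells without LPS. Control levels were 0.402 TPM with LPS, against 8.80 and 8.75 TPM without LPS. The pair fell together, and Ttc39a changed by -2.87 ± 0.10 in GIV-depleted cells and -2.80 ± 0.15 in control cells. Eps15, an endocytic protein gene on its other side, changed by -0.61 ± 0.07 in GIV-depleted cells, near the median.

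Snhg1 (chr19:8723475-8726443, plus strand) starts 106 bases from Slc3a2, which also runs the other way and encodes the heavy chain of an amino acid transporter. Slc3a2 was at 184, 207 and 183 TPM in GIV-depleted cells with LPS, against 101, 105 and 105 TPM in GIV-depleted cells without LPS. In the control line 263 TPM was measured with LPS, against 100 and 115 TPM without LPS. This pair moved apart, with Slc3a2 at 0.87 ± 0.07 in GIV-depleted cells and 1.29 ± 0.11 in control cells while Snhg1 fell, and these directions held under the scalings. Slc3a2 was lower in GIV-depleted than in control cells with LPS, at -0.46 ± 0.10, past the threshold in 3 of the 5 scalings.

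Ptgs2os2 (chr1:150159043-150164948, minus strand) lies 50816 bases from Ptgs2, which encodes cyclooxygenase 2. Ptgs2 averaged 1441 TPM in GIV-depleted cells with LPS and 2.78 TPM in GIV-depleted cells without LPS, and in control cells it was at 1564 TPM with LPS and 3.11 TPM without LPS. Both rose, Ptgs2 by 8.57 ± 0.09 in GIV-depleted cells and 8.57 ± 0.13 in control cells. Without LPS their TPM were alike in GIV-depleted cells, and with LPS Ptgs2 was far the more abundant.

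Gas5 (chr1:161034422-161038539, plus strand) overlaps Zbtb37 on the other strand. Zbtb37 did not pass, at 0.05 ± 0.12 in GIV-depleted cells and 0.24 ± 0.18 in control cells. Whether the authors' quantification used the strand is not given in the sources used here, so reads of Gas5 and Zbtb37 in their overlap cannot be told apart. Mir155hg (chr16:84703167-84715245, plus strand) lies 2331 bases from Mrpl39, a mitochondrial ribosomal protein gene, which changed by 0.19 ± 0.06 in GIV-depleted cells and 0.50 ± 0.09 in control cells and was lower in GIV-depleted than in control cells with LPS, at -0.40 ± 0.08, past the threshold in 1 of the 5 scalings. Tlcd2, which overlaps Mir22hg (chr11:75461539-75466676, plus strand), rose by 0.86 ± 0.12 and 1.03 ± 0.18. Neat1 and Malat1 lie next to each other on chromosome 19, with Frmd8 as a coding neighbour, which changed by -0.67 ± 0.07 in GIV-depleted cells.

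**Figure D5:**
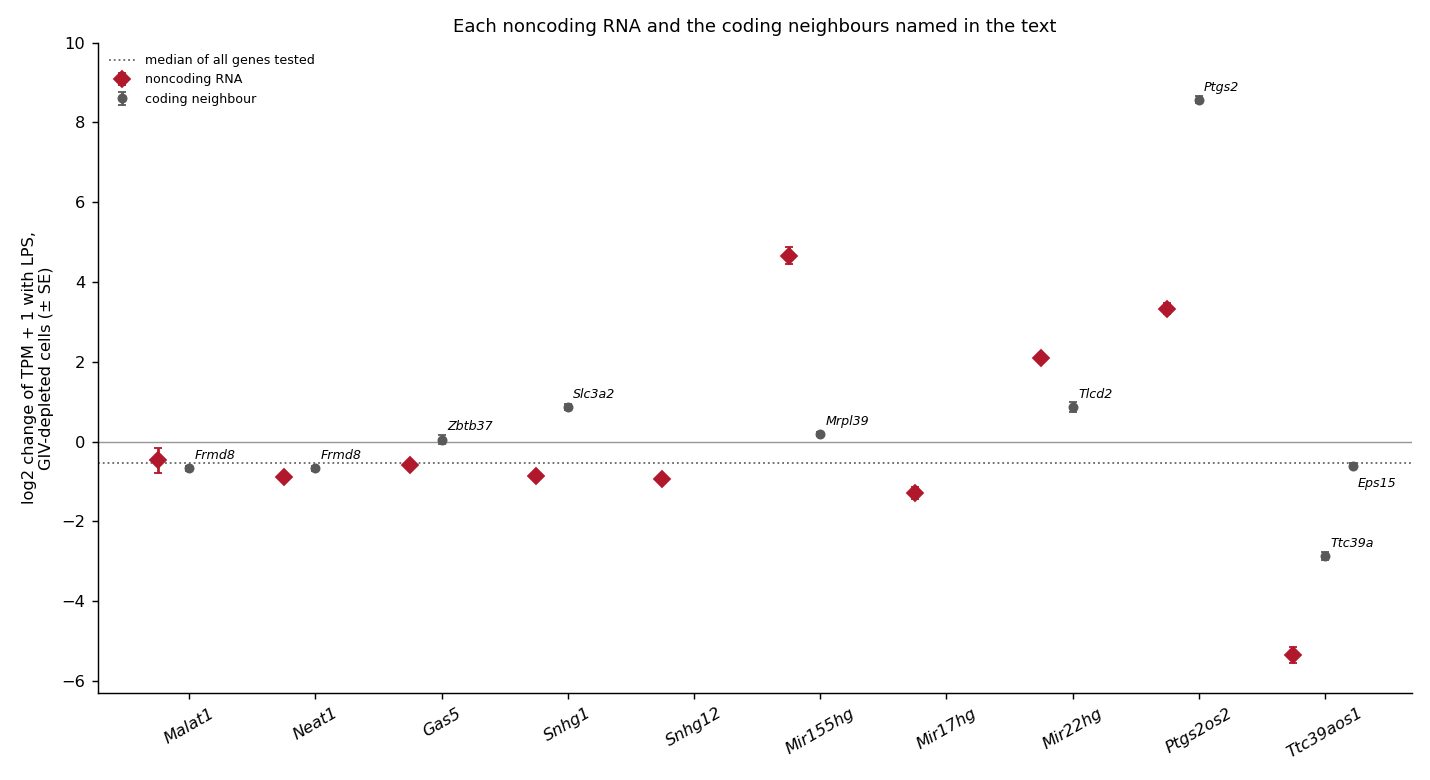
Log2 change of TPM + 1 with LPS in GIV-depleted cells (± SE from limma) for each noncoding RNA (diamonds) and the coding neighbours named in the text (circles), with a dotted line at the median of all genes tested (-0.54). Ttc39a lies below the line with Ttc39aos1, Ptgs2 far above it with Ptgs2os2, and Slc3a2 above 0 while Snhg1 is below.

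Likeness was measured as Pearson's r of log2(TPM + 1) over the 9 libraries with 7933 genes that had a mean log2(TPM + 1) of at least 3 and a symbol held by 1 gene. The 9 libraries fall into LPS and no LPS, a split that all these points share, and r carries no p. Mir22hg was most like Smox (r = 0.999) and Mir155hg most like Aida (r = 0.999). Ptgs2os2 was most like Gm20559, itself noncoding (r = 1.00), and Ttc39aos1 most like Fech (r = 0.999). Among the members, Mir155hg and Mir22hg had r = 0.991, Snhg1 and Mir17hg r = 0.981, and Mir155hg and Ttc39aos1 r = -0.986. Malat1 was least like the others, between r = -0.62 with Mir22hg and r = 0.69 with Mir17hg.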

How the data were processed

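RNA-seq of 10 libraries in 4 groups was used, of 11 samples in the labels. The authors quantified reads with kallisto 0.45.0 on GRCm38, per the submitters' processing notes, and deposited log2 values, which behave as log2(TPM + 1) and sum to 1000000 once undone. The annotation, strand setting and read numbers are not given in the sources used here. Symbols are those of the deposited table, gene types and positions come from GENCODE M21 (51336 of 52143 genes matched by gene ID), and sequences with their positions from RefSeq on GRCm38.p6. Promoter windows matched by symbol for 9 of the 10 RNAs.

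The 13711 genes that reached a log2(TPM + 1) of 1 in 2 or more libraries were fitted in limma 3.58.1 (R 4.3.3) on log2 values in a model of 4 groups with 9 libraries, a mean-variance trend and 5 residual degrees of freedom. P-values were adjusted by Benjamini-Hochberg over all genes tested, with a threshold of 0.05. Intervals are 95% intervals from that fit. The code was tested on simulated data. Tables and figures were made in Python 3.11.15.

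The 10 RNAs, the gene lists and the tests were chosen with earlier results of these data known. From each list the text names up to 4 genes past the threshold with the largest changes, and for each RNA the nearest coding genes. Alternatives were all 10 libraries, other filters, another pseudocount, 4 other scalings, other variance models, a replicate block, the compared groups alone and leaving out each library. Replicate numbers come from set numbers in the labels and were not treated as pairs. Some neighbouring and listed genes are not reported here by name.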

Additional observations from a re-analysis of the deposited data

Results flagged for a closer look

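Malat1 stood at 741 TPM in control replicate 2 without LPS, a library that is left out of the group means and of the main comparisons, which is above the 194 and 144 TPM of control replicates 1 and 3. The 9 other RNAs were lower in that library than in those 2. Mir6236 took 57.8% of its TPM, and the part of that share in the level of Malat1 was not tested.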

How the results depend on the processing

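Of 1010 values of the 10 RNAs over 21 alternative settings, 916 kept direction and side of the threshold, 34 no longer passed, 3 newly passed and 57 changed sign. LPS in GIV-depleted cells passed for 9 RNAs and for 4 with all 10 libraries. LPS in control cells passed for 8, and for 2 with all 10 libraries, 5 with TMM and 5 with the 2 groups alone. GIV depletion with LPS passed for 1, for 2 with the stricter filter, and for 0 with all 10 libraries, without the filter, under the 4 other scalings, without the variance trend and with the 2 groups alone. Leaving out single libraries gave 0 to 1. The causes were not tested.

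Same-numbered GIV-depleted libraries with and without LPS had correlations of deviations of 0.0617, 0.0715 and 0.0970, so the numbers were not taken as pairs. Each GIV-depleted library with LPS nonetheless correlated best with its own number, a hint from the data and not the design. Between the lines without LPS, same-numbered libraries had 0.0972 in set 1 and 0.0672 in set 3. GIV-depleted libraries with LPS and same-numbered control libraries without it had 0.0361 and -0.0013. Over all genes, the block lowered the number past the threshold in depletion without LPS from 167 to 58. With the replicate block 10 RNAs passed with LPS in GIV-depleted cells, 7 in control cells, and 0 in each of the other 3 comparisons. Malat1 passed there with LPS in GIV-depleted cells (-0.47), and Snhg12 did not pass in depletion with LPS (-0.58). Under the block the sign changed for Mir155hg in depletion without LPS (0.12) and Ptgs2os2 in depletion with LPS (-0.084).

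Other signs changed as follows. LPS in GIV-depleted cells with TMM gave 0.19 for Malat1 and 0.087 for Gas5. LPS in control cells gave 1.26 for Gas5, 0.91 for Snhg1 and 0.93 for Snhg12 with all 10 libraries, 0.19 for Gas5 and 0.35 for Snhg12 with TMM, and 0.16 for Snhg12 with quantile normalization. Depletion without LPS with all 10 libraries gave -0.63 for Malat1, 0.14 for Mir155hg, 0.49 for Mir22hg, 0.094 for Ptgs2os2 and 1.23 for Ttc39aos1, and for Mir155hg 0.0018 with the pseudocount of 0.1 and 0.010 with quantile normalization. Depletion with LPS gave 0.10 for Gas5, 0.048 for Snhg1 and 0.11 for Mir22hg with TMM, and 0.069 for Snhg1, 0.012 for Mir155hg and 0.12 for Mir22hg with quantile normalization. Rescaling without mitochondrial and abundant genes gave 0.067 for Gas5, 0.013 for Snhg1 and 0.077 for Mir22hg there, and rescaling over protein-coding genes 0.055, 0.00037 and 0.064. The difference of the LPS responses gave -0.091 for Ptgs2os2 with all 10 libraries, 0.025 for Neat1 and 0.16 for Mir22hg with TMM, 0.039 for Neat1, 0.0017 for Mir155hg and 0.15 for Mir22hg with quantile normalization, 0.0079 for Neat1 and 0.14 for Mir22hg without mitochondrial and abundant genes, and 0.13 for Mir22hg over protein-coding genes.

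Leaving out single libraries changed signs near 0. In depletion without LPS the ranges were -0.22 to 0.32 for Malat1, -0.0041 to 0.15 for Mir17hg, -0.18 to 0.12 for Ttc39aos1, -0.11 to 0.10 for Mir155hg and -0.18 to 0.12 for Mir22hg. In depletion with LPS they were -0.033 to 0.070 for Neat1, -0.081 to 0.083 for Ptgs2os2 and -0.42 to 0.040 for Mir155hg. In the difference they were -0.16 to 0.14 for Mir22hg and -0.42 to 0.042 for Mir155hg. Read depth is unknown, so counting error could not be given for RNAs near 0 TPM, such as Ttc39aos1 with LPS.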
